A study of Mus musculus with 2 samples.

Results

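The genes described here encode carriers that move amino acids, glucose and related small solutes across membranes in Dgcr8 knockout ES cells (embryonic stem cells) of the mouse. They were taken by name and not by level. A gene was included when it had a row in both count files, was protein coding in GENCODE release M21, and had a symbol of the Slc1a, Slc2a, Slc6a, Slc7a, Slc36a, Slc38a or Slc43a families or was Slc3a1 or Slc3a2. This gave 76 of 43629 genes, of which 75 encode transporters or their subunits. The remaining gene, Slc7a6os, is named after its neighbour Slc7a6 on the opposite strand, and it was kept out of every share within a family.

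Polyadenylated RNA was sequenced from 2 libraries, replicates A and B, which form a single group with no wild-type library analysed here. Both carry the labelled Dgcr8 knockout, made by a paired CRISPR/Cas9 approach per the series title, in ES cells of 129/Ola background at passage 7 with the blastocyst as labelled tissue. The labels do not say whether the line is 1 clone or whether A and B came from separate cultures, so their spread, and every p-value below, may reflect technical error alone. Dgcr8 is the RNA-binding partner of Drosha in microRNA processing, and every value below describes a level in knockout cells and no change caused by the knockout.

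Library A held 27872396 counts and library B 30327146. CPM is counts per 1000000 counts of a library, and RPKM is CPM per 1000 bases of a gene's longest annotated transcript, the scale used wherever genes are compared with each other. A value followed by ± is a mean with its SD (n = 2 libraries). Dgcr8 itself held 1253 and 1942 counts in A and B, which does not check the genotype because counts per gene do not show which exons were read. All 8 pluripotency markers, Pou5f1 and Nanog among them, reached 1 CPM in both libraries. So did 6 of 10 endoderm markers, 4 of 8 fibroblast, 5 of 8 neural, 3 of 7 blood and 4 of 7 trophoblast markers, with the summed level of each of these lists between 27.7 and 237 CPM against at least 5984 CPM for pluripotency markers. Postn of fibroblasts and Hbb-bt of red blood cells had no count. Other genes of the same lists were present, with Thy1 of the fibroblast list at 876 and 664 counts and Cd68 of the blood list at 412 and 720.

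Glucose enters mammalian cells through facilitative carriers of the Slc2 (GLUT) family. Amino acids use several families: Slc38 and Slc1 carriers couple uptake to ion gradients, while many Slc7 proteins exchange one amino acid for another and reach the cell surface only when bound to a heavy chain, Slc3a2 (CD98) or Slc3a1 (rBAT). Members of a family differ in substrate, affinity and tissue, so paralogs of one family can serve different tissues and uses. In bulk RNA a lower level in a library cannot be told apart as fewer cells with the transcript or less transcript per cell.

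Below, 3 upstream windows are shown because they belong to genes at opposite ends of the findings. Slc2a1 was the highest Slc2 gene by the longest transcript, Slc2a2 had no count, and Slc7a11 differed most between the libraries among the members tested. Each window is the 250 bases before the RefSeq start site on GRCm38.p6, written in the direction of transcription. Capitals mark CpG dinucleotides in the windows of Slc2a1 (chr4:119108495-119108744, plus strand) and Slc2a2 (chr3:28697653-28697902, plus strand). In the window of Slc7a11 (chr3:50443614-50443863, minus strand) they mark matches to TGATGNAA, the core of the amino acid response element to which Atf4 binds.

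Slc2a1: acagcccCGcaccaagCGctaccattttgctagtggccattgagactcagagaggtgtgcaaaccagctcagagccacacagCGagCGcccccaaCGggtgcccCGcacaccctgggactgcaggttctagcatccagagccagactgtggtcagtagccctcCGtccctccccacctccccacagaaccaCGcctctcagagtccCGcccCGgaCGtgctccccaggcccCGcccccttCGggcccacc

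Slc2a2: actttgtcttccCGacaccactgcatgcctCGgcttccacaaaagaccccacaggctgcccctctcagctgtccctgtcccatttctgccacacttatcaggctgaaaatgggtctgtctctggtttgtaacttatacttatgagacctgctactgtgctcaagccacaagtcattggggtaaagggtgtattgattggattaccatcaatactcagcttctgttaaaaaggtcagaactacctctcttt

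Slc7a11: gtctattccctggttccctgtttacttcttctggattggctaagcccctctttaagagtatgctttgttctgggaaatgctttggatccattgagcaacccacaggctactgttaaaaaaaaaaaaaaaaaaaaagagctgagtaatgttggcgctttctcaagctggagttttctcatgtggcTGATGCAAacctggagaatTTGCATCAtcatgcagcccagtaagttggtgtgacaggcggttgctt

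The Slc2a1 window held 13 CpG dinucleotides and a GC content of 66.4%, and the Slc2a2 window held 2 at 47.2%. The median over all 32851 windows of the RefSeq table was 6 CpG and 52.4% GC. TGATGNAA, searched on both strands, matched at 2 places in the Slc7a11 window, starting 66 and 47 bases before the start site, once on each strand. A match to it was present in 3.45% of all windows. A match is a description of letters and not evidence of binding. Of the 76 members, 56 (73.7%) had a window in the table, under the 80% set as the minimum, so a comparison of promoter features across the members is void.

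Transporter levels ran from no count to over 100 RPKM. Of the 76 members, 41 reached 1 CPM in both libraries, close to the 55.6% of all protein-coding genes that did so. A further 3, Slc6a5, Slc7a9 and Slc7a11, reached it in 1 library only. The other 32 stayed under 1 CPM in both with at most 27 counts in either library. Only 6 of the 76 members had no count at all, a lower share than the 21.3% of all protein-coding genes. They were Slc2a2, Slc38a11, Slc6a18, Slc6a20b, Slc7a12 and Slc7a13. A count of 0 allows up to 0.108 CPM in A and 0.0989 CPM in B. By mean RPKM 18 members exceeded 10 and 5 exceeded 100. The members together took 0.421% of all counts in A and 0.465% in B, and the 8 highest by RPKM held 70.1% and 68.3% of that.

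**Figure D1:**
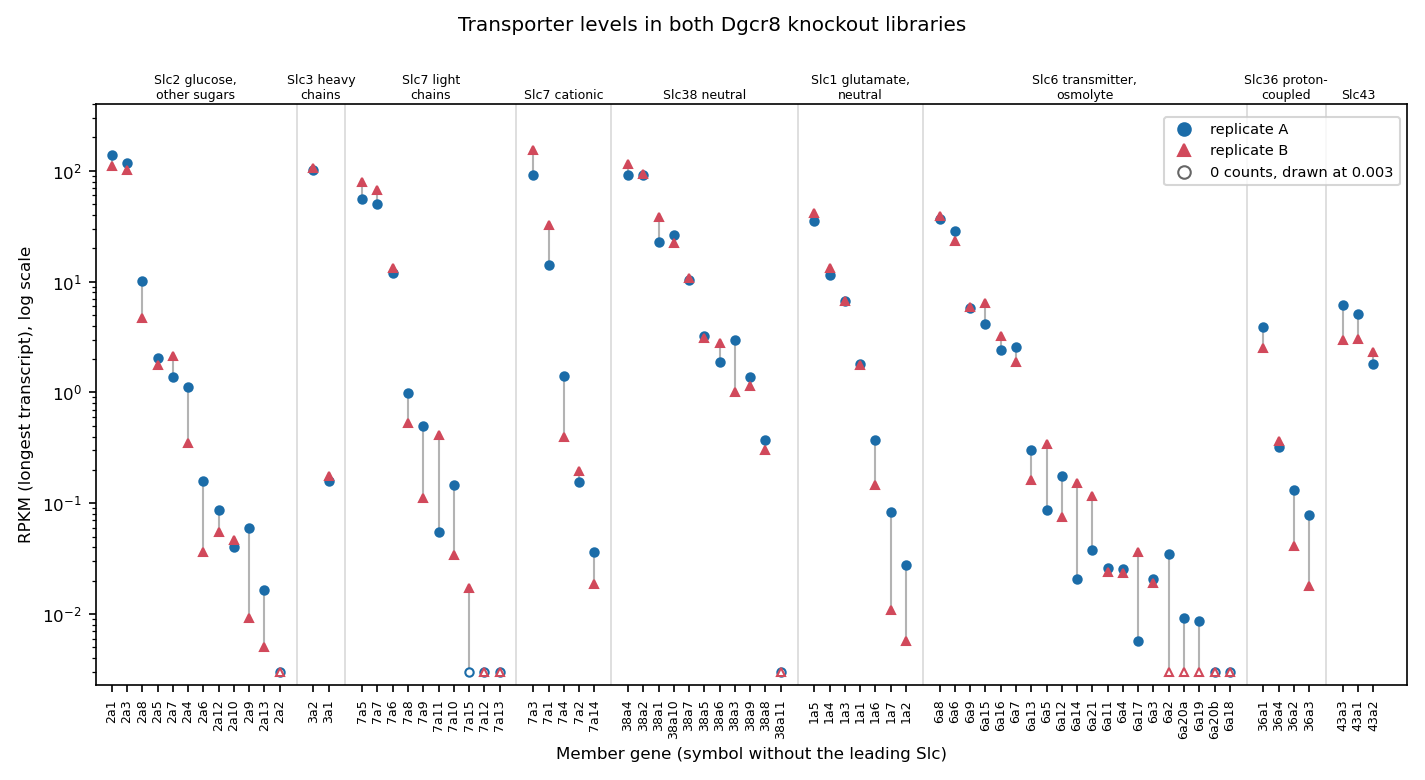
RPKM over the longest transcript (log axis) of the transporter genes, grouped by role and ordered by mean within a group. Circles are replicate A and triangles replicate B, joined by a line, and open symbols stand for 0 counts. In each role group except Slc36 and Slc43 the leading gene lies above 30 RPKM in both libraries, and most groups end in genes under 1 RPKM.

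The glucose carriers were dominated by a pair of genes. Slc2a1 (GLUT1; ENSMUSG00000028645, GRCm38 chr4:119108711-119137983), the basal glucose carrier of most dividing cells, had 12668 counts in A and 10935 in B, or 139 and 111 RPKM. Slc2a3 (GLUT3; ENSMUSG00000003153, chr6:122727809-122801640), a high-affinity glucose carrier, had 20424 and 19191 counts, or 117 and 101 RPKM. Together they made up 94.4% of the summed Slc2 RPKM in A and 95.9% in B. Their ranges over the libraries overlapped, and their order depended on the transcript length used. Over the longest protein-coding transcript Slc2a3 reached 185 and 160 RPKM and stood above Slc2a1 in both libraries, because its longest annotated transcript is 6253 bases and its longest coding one 3959.

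The next glucose carrier was far lower. Slc2a8 (GLUT8), a mainly intracellular hexose carrier, had 887 counts in A and 442 in B, or 7.44 ± 3.91 RPKM. The fructose carrier Slc2a5 (GLUT5) reached 2.06 and 1.78 RPKM, and its neighbour Slc2a7, 4802 bases away on chromosome 4, reached 1.39 and 2.13. Slc2a5 and Slc2a7 changed places between the libraries. The insulin-responsive carrier Slc2a4 (GLUT4) was low, with 100 and 34 counts. Of the 12 Slc2 genes, 6 lay under 1 CPM in both libraries. They included the liver and beta-cell carrier Slc2a2 with 0 counts and the myo-inositol carrier Slc2a13 with 3 and 1.

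Of the heavy chains, Slc3a2 was abundant and Slc3a1 lay under 1 CPM. Slc3a2 (ENSMUSG00000010095, chr19:8706882-8723369), the CD98 heavy chain, had 7983 counts in A and 9134 in B, or 102 and 107 RPKM. Slc3a1 (chr17:85028376-85064236), the heavy chain of the kidney and gut cystine carrier, had 10 and 12 counts, or 0.158 and 0.174 RPKM. Slc3a2 therefore exceeded Slc3a1 644-fold in A and 615-fold in B per length. Exons of Slc3a1 overlap exons of Prepl on the other strand over 601 bases, and Prepl had 918 and 1826 counts.

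The light chains that pair with Slc3a2 were led by 2 genes of similar level. Slc7a5 (LAT1; chr8:121881150-121907694), which takes up leucine and other large neutral amino acids, had 5405 counts in A and 8518 in B, or 55.1 and 79.9 RPKM. Slc7a7 (y+LAT1; chr14:54369442-54417780), which exports cationic in exchange for neutral amino acids, had 3216 and 4628 counts, or 50.7 and 67.0 RPKM. The pair made up 88.7% of light chain RPKM in A and 91.1% in B, and their ranges overlapped while Slc7a5 led in each library. Exons of Slc7a7 overlap those of Oxa1l on the opposite strand over 232 bases, and Oxa1l had 3141 and 2463 counts, so part of the Slc7a7 count is uncertain if strand was not used.

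Slc7a6 (y+LAT2), a paralog of Slc7a7 with the same kind of exchange, followed at 11.8 and 13.3 RPKM. Slc7a8 (LAT2), the close relative of Slc7a5, had 112 counts in A and 65 in B, or 0.984 and 0.525 RPKM. Per length, Slc7a5 exceeded Slc7a8 56.0-fold in A and 152-fold in B. The cystine and glutamate exchanger Slc7a11 (xCT) had 14 counts in A and 116 in B, or 0.0545 and 0.415 RPKM. Slc7a9, which pairs with Slc3a1, had 29 and 7 counts, and Slc7a10 (Asc-1) had 8 and 2. Slc7a12 and Slc7a13 had no count, and Slc7a15 had 0 in A and 1 in B.

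Heavy and light chains could be set against each other on the RPKM scale. The 6 light chains known to pair with Slc3a2, which are Slc7a5, Slc7a6, Slc7a7, Slc7a8, Slc7a10 and Slc7a11, summed to 119 RPKM in A and 161 in B. Slc3a2 was 0.857 times that sum in A and 0.665 times in B. Slc3a2 itself differed 1.12-fold between the libraries, less than its main partners Slc7a5 (1.54-fold) and Slc7a7 (1.41-fold), all higher in B.

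The group of cationic amino acid carriers, of which Slc7a3 and Slc7a1 bring in arginine and lysine without a heavy chain, was led by Slc7a3. Slc7a3 (CAT3; chrX:101079210-101086020) had 6960 counts in A and 12782 in B, or 90.8 and 153 RPKM. Slc7a1 (CAT1; chr5:148327410-148399904), the widely expressed paralog that also serves as a receptor for ecotropic retroviruses, had 2821 and 7011 counts, or 14.1 and 32.2 RPKM. Slc7a3 exceeded Slc7a1 6.44-fold in A and 4.76-fold in B, and their ranges did not overlap. Slc7a3 made up 85.3% and 82.4% of the group's RPKM. Slc7a4 had 128 counts in A and 39 in B, Slc7a2 (CAT2) 34 and 47, and Slc7a14 9 and 5.

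Of the 11 Slc38 genes, 9 reached 1 CPM in both libraries, and 3 genes on chromosome 15 led them by mean RPKM. Slc38a4 (chr15:96994820-97055956), an imprinted gene in mouse, took 10004 counts in A and 13753 in B, or 91.3 and 115 RPKM. Slc38a2 (SNAT2; chr15:96687392-96699730), the amino acid-regulated system A carrier, had 15659 and 17505 counts, or 91.9 and 94.4 RPKM. Slc38a1 (SNAT1; chr15:96571418-96642913), a glutamine carrier, had 4646 and 8490 counts, or 22.9 and 38.5 RPKM. These genes held 81.5% of Slc38 RPKM in A and 85.7% in B. Slc38a2 was level with Slc38a4 in A, at 1.01 times its RPKM, and lay below it in B, at 0.818 times. Over the longest protein-coding transcript Slc38a2 led the family, at 121 and 124 RPKM.

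The other Slc38 genes had a lower mean RPKM than Slc38a4, Slc38a2 and Slc38a1. Slc38a10 reached 26.5 and 22.3 RPKM and overlapped in range with Slc38a1, above it in A and below it in B. Slc38a7, a lysosomal glutamine exporter, reached 10.6 ± 0.186 RPKM. Slc38a9, the lysosomal arginine sensor of the mTORC1 pathway, had 339 counts in A and 310 in B, or 1.26 ± 0.154 RPKM. The system N carriers were Slc38a5, at 3.17 ± 0.0667 RPKM, and Slc38a3, with 263 counts in A and 96 in B. Slc38a6 (204 and 330 counts) is uncertain, since its longest coding transcript shares near-identical stretches with other genes. It matches transcripts of Noct over up to 3240 bases and at up to 99.1% identity, and Noct had 3639 and 7218 counts. Further genes match it too, among them D10Wsu102e over up to 3185 bases, with 1770 and 2863 counts. Slc38a8 had 27 and 24 counts and Slc38a11 none.

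In the Slc1 family the neutral amino acid exchangers were higher than the glutamate carriers. Slc1a5 (ASCT2; chr7:16781340-16798274), a glutamine exchanger, had 2776 counts in A and 3572 in B, or 38.7 ± 4.58 RPKM. Its paralog Slc1a4 (ASCT1), which prefers serine and other small neutral amino acids, reached 11.4 and 13.2 RPKM, and Slc1a5 exceeded it 3.11-fold in A and 3.17-fold in B. The glutamate carriers Slc1a3 (GLAST) and Slc1a1 (EAAC1) reached 6.65 ± 0.00318 and 1.78 ± 0.0296 RPKM. No neighbours in this order overlapped in range. Exons of Slc1a1 overlap those of 4430402I18Rik (8 and 4 counts) on the opposite strand over 2631 bases. The Slc1a1 count is therefore uncertain if strand was not used. Slc1a2 (GLT-1), the main glutamate carrier of astrocytes, had 9 and 2 counts, Slc1a6 21 and 9, and Slc1a7 7 and 1.

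The Slc6 family held few present genes among many absent ones. Of 21 members, 7 reached 1 CPM in both libraries and 13 stayed under it in both. Slc6a8 (chrX:73673150-73682502), the creatine carrier, had 4102 counts in A and 4718 in B, or 37.1 and 39.2 RPKM. Slc6a6 (chr6:91684053-91759066), the taurine carrier, had 4967 and 4325 counts, or 28.8 and 23.1 RPKM. They held 76.2% of the family's RPKM in A and 68.5% in B, and neither carries an amino acid used in protein synthesis. The glycine carrier Slc6a9 (GlyT1) lay at 5.81 ± 0.0588 RPKM, and shares 1429 exon bases with Ccdc24 (3 and 0 counts) on the opposite strand. The neutral amino acid carrier Slc6a15 lay at 5.27 ± 1.61 RPKM, below Slc6a9 in A and above it in B.

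The carriers that define monoamine neurons were nearly absent. Slc6a2 (noradrenaline) had 6 counts in A and 0 in B, Slc6a3 (dopamine) 2 and 2, and Slc6a4 (serotonin) 2 and 2. The epithelial amino acid carriers were similar, with 0 counts in both libraries for Slc6a18 and Slc6a20b, 1 and 0 for Slc6a19, and 2 and 16 for Slc6a14. Exons of Slc6a20b overlap those of Sacm1l (926 and 1641 counts) on the opposite strand over 1800 bases. The Slc6a20b count of 0 is therefore uncertain if strand was not used. The proline carrier Slc6a7 and the orphan Slc6a16 lay at 2.21 ± 0.471 and 2.83 ± 0.586 RPKM.

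The smaller families were low. Slc36a1 (PAT1; chr11:55204350-55236330), a proton-coupled carrier of small amino acids at the lysosome and cell surface, had 569 counts in A and 405 in B and held 87.9% and 85.7% of the RPKM of its group. Slc36a4 had 59 and 72 counts, Slc36a2 9 and 3, and Slc36a3 4 and 1. In the Slc43 family no gene dominated. The branched-chain amino acid carrier Slc43a1 (LAT3) reached 5.14 and 3.05 RPKM, its paralog Slc43a2 (LAT4) 1.80 and 2.32, and the purine nucleobase carrier Slc43a3 6.20 and 2.96. Slc43a3 and Slc43a1, which lie 72984 bases apart on chromosome 2, changed places between the libraries.

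**Figure D2:**
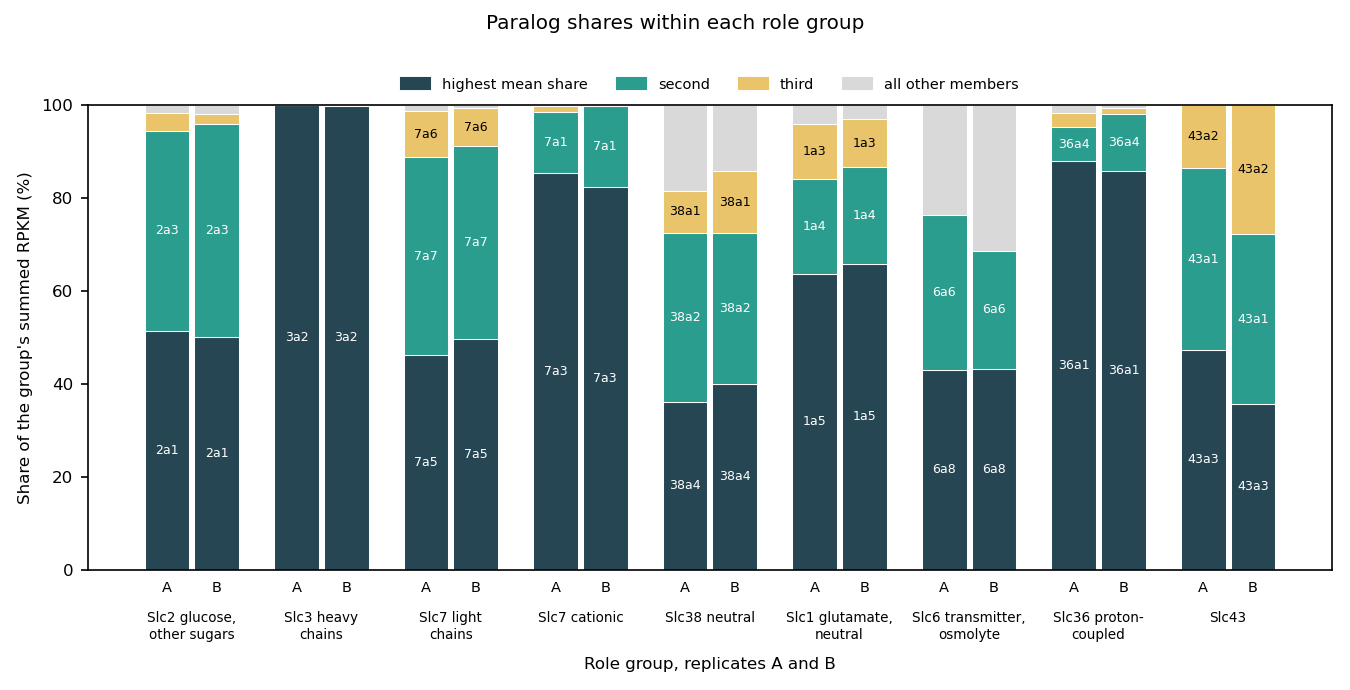
Share of each role group's summed RPKM (0 to 100%) held by its highest members, up to 3, and by all others, with 1 bar per library. The leading gene holds over 80% of the heavy chain, cationic and Slc36 groups in both libraries, while pairs of similar height lead Slc2, the light chains and Slc38.

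Paralog order was mostly kept between the libraries. Among genes at 1 CPM in both, 31 pairs stood next to each other in the order of their group. The ranges over A and B overlapped in 11 of these pairs, and 9 pairs had another order in 1 library. Of the 9 reordered pairs, 4 were in Slc38 (of 8), 3 in Slc6 (of 6), 1 in Slc2 (of 5) and 1 in Slc43 (of 2). None were among the light chains, the cationic carriers or Slc1, with 3 pairs each.

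Chromosomal neighbours did not have to share a level. Of 14 pairs of members with at most 200000 bases between them, both reached 1 CPM in both libraries in 4 pairs, 1 gene did in 4 pairs, and neither did in 6. Slc36a1 lay at 3.88 and 2.54 RPKM with Slc36a2 19272 bases away at 0.133 and 0.0407. Slc7a6 and Slc7a6os, 2010 bases apart, were both present, with Slc7a6os at 14.1 and 15.3 RPKM.

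The libraries were then compared gene by gene to describe how far these levels differed between them. Each gene at 1 CPM or more in either library was tested with an exact two-sided binomial test of its counts, given library sizes scaled by TMM, and called at a Benjamini-Hochberg adjusted p under 0.05 over all genes tested. The test compares these libraries and no conditions, and its p-values set a difference against counting error only. Of the 44 members tested, 35 were called, against 76.8% of all 14583 genes tested, so the share is near the background. A difference of at least 1.5-fold was called for 18 members (37.9% of all genes tested) and of at least 2-fold for 9 (13.9%), 4 higher in B (6.57% of all genes tested) and 5 higher in A (7.37%). Of these 9, Slc7a11, Slc6a5 and Slc7a9 passed the filter only through the library where they were high, and among genes at 1 CPM in both libraries 2 were higher in B and 4 in A. The SD of the log2 ratio was 0.55 over 28 members at a mean of 10 CPM or more and 0.61 over all 9537 genes at that level.

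Called members were higher in B for 21 genes and higher in A for 14, against 38.4% of all tested genes in each direction. Among genes at 1 CPM in both libraries these counts were 19 and 13. Of the members differing 1.5-fold or more, 10 favoured B and 8 favoured A. With library totals in place of TMM, 7 favoured B and 9 A. With TMM and only genes at 1 CPM in both libraries, 8 favoured B and 7 A. The median log2 ratio of B over A was 0.15 for the members tested and -0.01 for all genes tested, taken from log2(TMM-scaled CPM + 0.5), which understates the ratios of low genes. Slc7 genes stood mostly higher in B. Called in that direction were 4 of 6 tested light chains and 2 of 4 tested cationic carriers, against 2 and 1 called higher in A. The light chain counts include Slc7a11, which passed the filter only through B, and Slc7a9, which passed it only through A. Slc2 genes leaned to A, where 4 of 6 tested were called higher and 1 was called higher in B. The difference between these families was not tested. A correction for GC content and length moved both small and larger ratios. The log2 ratio of Slc2a1 went from -0.24 to 0.01 and that of Slc38a2 from 0.13 to -0.40. That of Slc38a1 fell from 0.84 to 0.41, and that of Slc1a5 rose from 0.33 to 0.80.

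**Figure D3:**
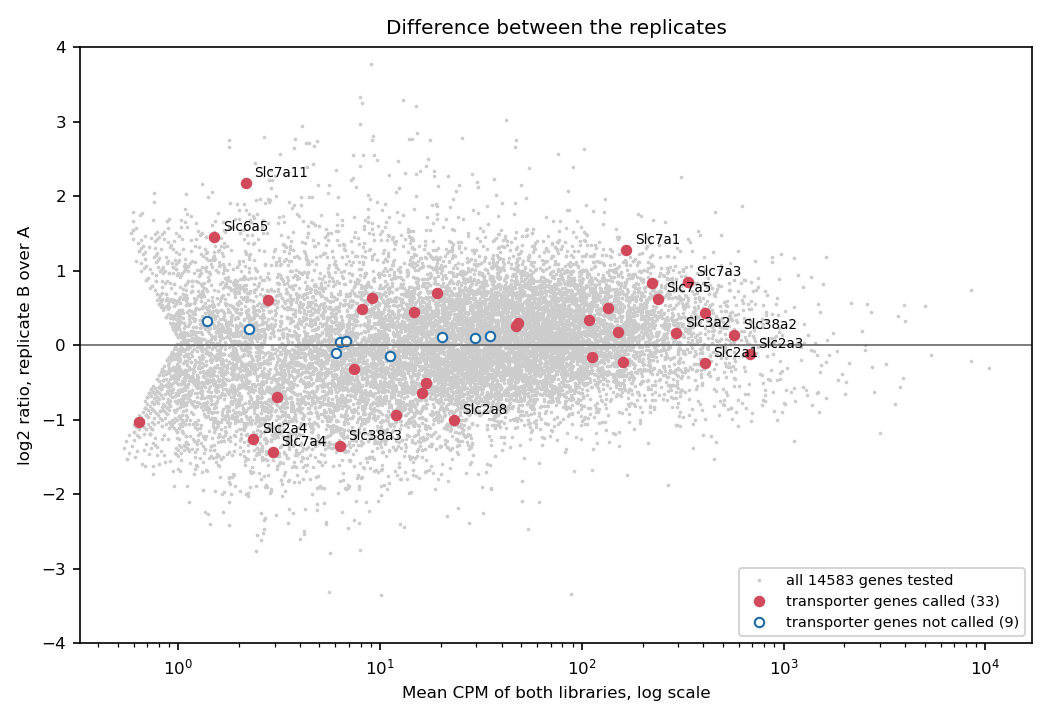
Log2 ratio of replicate B over A against mean CPM (log axis), with all genes tested in grey, called transporter genes as filled points and those not called as open points. The transporter genes lie within the grey cloud, with Slc7a11, Slc6a5 and Slc7a1 highest and Slc7a4 and Slc38a3 lowest.

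Slc7a11 had the largest ratio of the 44 members tested. Its level was 0.502 CPM in A (exact 95% Poisson interval 0.275 to 0.843) and 3.82 CPM in B (3.16 to 4.59), with no overlap, a ratio of 7.62. On the log2 scale with the added 0.5 CPM it was 4.51-fold higher in B (exact binomial test, adjusted p = 2.1e-20), and the log2 ratio ran from 1.74 to 2.79 with 1 and 0.1 CPM added. It passed the 1 CPM filter only through B, its transcript is among the 10% of tested coding genes with the lowest GC content, and 373 of its bases match the alpha-tubulin gene Tuba1b (33046 and 27260 counts) at 96.2% identity. The low-GC genes had a median log2 ratio of 0.51, and corrected for GC content and length the ratio of Slc7a11 fell from 2.17 to 1.29. Atf4, a factor that binds motifs of the kind marked in the Slc7a11 promoter window, differed 1.14-fold, at 231 RPKM in A and 247 in B. Whether Atf4 has any part in the Slc7a11 ratio was not tested.

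The cationic carrier Slc7a1 was 2.43-fold higher in B at a far higher level, 101 CPM in A and 231 in B. The glycine carrier Slc6a5 (GlyT2) was 2.74-fold higher in B, with 17 and 73 counts, and passed the filter only through B.

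In the other direction, Slc7a4 was 2.71-fold, Slc38a3 2.56-fold and Slc2a8 2.01-fold higher in A, and Slc2a4 had a log2 ratio of -1.26. Slc7a9, at 29 counts in A and 7 in B, was 2.04-fold higher in A at a mean under 1 CPM and passed the filter only through A. For Slc2a8, whose transcript is among the most GC-rich, the log2 ratio was -1.01 and became -0.37 after correction for GC content and length. For 9 members no difference was called at this depth. They were Slc1a3, Slc1a1, Slc38a5, Slc38a7, Slc6a9, Slc2a5, Slc38a9, Slc36a4 and Slc7a2, with ratios of at most 1.25-fold before correction for GC content and length. With that correction their log2 ratios ran from -0.84 for Slc38a9 to 0.51 for Slc6a9.

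Cell type markers also differed between the libraries. Of 10 endoderm markers 8 were tested, 6 were called at least 2-fold higher in B (6.57% of all genes tested) and 2 were called higher in A (38.4%). Among these 6, Gata6 and Sox7 passed the 1 CPM filter only through B, where they were high. The list summed to 83.4 CPM in A and 237 in B, with Lama1 at 47.3 and 142 CPM and Cubn at 1.51 and 14.3. Gata4 (198 and 149 counts) and Amn (64 and 37 counts) were the 2 called higher in A. Sox17, at 5 and 19 counts, and Foxa2, at 2 and 14, lay under 1 CPM in both libraries and were not tested. Pluripotency markers summed to 8983 CPM in A and 5984 in B, with Dppa5a alone at 4252 and 1767. Trophoblast markers summed to 171 CPM in A and 88.0 in B, neural markers to 124 and 89.0, fibroblast markers to 47.9 and 30.2, and blood markers to 27.7 and 31.9. Their part in the differences of the transporters was not tested.

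Genes that sense amino acids at the lysosome were present throughout. All 25 listed members of the mTORC1 pathway reached 1 CPM in both libraries, 22 were called between the libraries (76.8% of all genes tested), 13 higher in B and 9 in A (38.4% each), and 1 differed at least 2-fold (13.9%). Lamtor2, a subunit of the Ragulator scaffold, reached 111 and 62.5 RPKM, the leucine sensor Sesn2 60.6 and 77.3, and the Rag GTPase Rraga 42.3 and 52.4. Fnip2, a partner of folliculin, was 2.12-fold higher in B, at 3.40 and 6.83 RPKM.

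All 12 listed regulators of transporter genes or of transporter surface level reached 1 CPM in both libraries. Of these, 9 were called higher in B and 1 higher in A, against 38.4% of all genes tested in each direction, with a median log2 ratio of 0.44 against -0.01. Whether the list differs from other genes was not tested. The ubiquitin ligase Nedd4 reached 215 and 356 RPKM, and Txnip, which lowers glucose uptake by promoting internalisation of Slc2a1, 65.5 and 83.2. Arrdc3, an arrestin-like adaptor related to Txnip, was 2.02-fold higher in B, and Mlxipl, the glucose-sensing factor ChREBP, 2.80-fold higher in A.

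Other sugar and amino acid carriers, from families outside the naming rule, were low. Of 21 listed, 12 reached 1 CPM in both libraries, near the 55.6% of protein-coding genes. Of the 13 tested, 2 were called higher in B and 8 higher in A, against 38.4% of all genes tested in each direction. Among those 8, Slc32a1 passed the 1 CPM filter only through A. Slc45a4, annotated as a sugar carrier, led with 15.5 and 12.3 RPKM, ahead of the inositol carrier Slc5a11 with 13.3 and 11.3. The sugar carrier Slc50a1 had 13.2 and 5.92 RPKM and was 2.02-fold higher in A. Slc17a7, a vesicular glutamate carrier, was 2.31-fold higher in A at 164 and 64 counts, and Slc5a4b was 2.36-fold higher in B at 68 and 184.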

How the data were processed

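For each library the authors deposited raw counts, whole numbers listed by Ensembl gene. Tools named in the submitters' processing notes are featureCounts 1.4.5-p1 and STAR 2.4.2a, with the build mm10, and the labels call the protocol reverse-stranded. The sources used here state no annotation, strand setting or handling of multi-mapping reads, so genes that share exon bases or near-identical stretches are uncertain. Of the members, 16 overlap an opposite-strand exon, and 2 share at least 300 bases at 95% identity with another gene (blastn 2.17.0).

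Names, lengths, positions and GC content came from GENCODE M21 on GRCm38, the assembly mm10 denotes. Of 43629 identifiers 42548 matched, with 99.8% of counts. TMM factors (edgeR 4.0.16, R 4.3.3), computed on genes at 1 CPM in either library, were 1.03 for A and 0.968 for B. Counts were compared with an exact binomial test (scipy 1.17.1), run also on simulated Poisson counts, which carry counting error only. Intervals cover counting error only, because reads lacking molecular identifiers can repeat a molecule, and a count of 0 was given the limit of 3 counts.

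Members, role groups and lists were chosen with earlier results of these data known. The text gives in each role group the 3 highest members by RPKM at 1 CPM in both libraries, the 2 with the fewest counts, both heavy chains, and members with a called difference of at least 2-fold and a mean of 1 CPM. In each of the 3 further lists (amino acid sensing, regulators, other carriers) it gives the 3 highest and any member differing 2-fold. Cell type markers are given by list, with single markers chosen after their values were seen. Other members complete the order of a group and were chosen after their values were seen. The values of 1 member are not reported here, though it is included in all counts and sums. Alternatives were library totals, size factors of DESeq2 1.42.0, other filters, pseudocounts and lengths, Fisher's exact test, and a lowess correction for GC content and length (statsmodels 0.14.6).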

Additional observations from a re-analysis of the deposited data

How the results depend on the processing

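The number of members at 1 CPM in both libraries was 41 and ranged from 36 to 44 over other thresholds and scalings, and from 42 to 43 with 1 library left out. The median level of the members was 0.746 RPKM. It was 0.403 without replicate A and 1.05 without replicate B, more than 1.5 times apart, so it is not a firm value. The count of called members ranged from 32 to 38 around 35, and that of 2-fold differences from 6 to 10 around 9.

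Shares within a group depended on the length assigned to a gene. Over the union of exons, Slc1a5 held 60.6% of its group in place of 64.7%, Slc7a5 55.0% in place of 47.9%, Slc38a4 46.4% in place of 38.0%, Slc6a8 45.5% in place of 43.0%, Slc2a1 52.3% in place of 50.7%, and Slc3a2 99.80% in place of 99.84%. Over the longest protein-coding transcript, Slc38a4 held 34.3% and Slc2a1 39.8%, and Slc38a2 and Slc2a3 then led. The lead of Slc43a3 over Slc43a1, at 41.3% of the group, passed to Slc43a1 without replicate A and under both other lengths. With 1 library left out, shares ranged from 63.6% to 65.8% for Slc1a5, 46.2% to 49.5% for Slc7a5, 36.1% to 39.8% for Slc38a4, and 35.5% to 47.2% for Slc43a3. The ratios of the members with a called 2-fold difference and a mean of 1 CPM or more kept their direction and their call under the settings that could test them. Slc7a9, with a mean under 1 CPM, was not run under these settings. No difference between the libraries can be had with 1 of them left out. No paired analysis was possible because the series holds 1 group. Depth limits statements on the 32 members under 1 CPM, whose counts are at most 27.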
